A study of Rattus norvegicus with 20 samples.

Results

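The oligodendrocyte lineage and myelin genes described here are 32 gene symbols, taken from precursor to myelin sheath, that were looked up in the gene tables of a rat hippocampus RNAseq study. Of these, 31 were found among the 17168 genes of each table and all 31 held reads. Gjc3 did not match and was not analysed here. The members comprised 2 precursor surface proteins, 6 transcription factors of the lineage, 4 genes of committed and maturing cells, 9 genes of myelin structure, 1 gap junction subunit, 4 enzymes of myelin lipids, 3 metabolic and transport genes, and 2 genes of lysophosphatidic acid signaling.

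Oligodendrocytes wrap axons of the central nervous system in myelin. They arise from precursor cells that carry the growth factor receptor Pdgfra and the proteoglycan Cspg4 (NG2), which pass through a short committed stage marked by Gpr17 and Enpp6 before they switch on the genes of the sheath. Sox10 and Olig2 are present throughout the lineage, and Myrf is the transcription factor that turns on myelin genes as the cells mature. In the adult hippocampus myelinated fibers run mainly in the alveus, the fimbria and the outermost layers, while precursors are spread through the tissue.

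The promoters of 3 members are shown as examples from the opposite ends of the lineage, a pair of sheath genes that both hold the Myrf core and a precursor gene. They are the 250 bases before the annotated start in the RefSeq annotation of GRCr8, printed 5′ to 3′ on the strand of the gene. Capitals mark the letters ACAAAG, a core bound by SOX proteins such as Sox10, and CTGGCAC, the core of the motif bound by Myrf, each on either strand.
Cnp (chr10:86011254-86011503, plus strand): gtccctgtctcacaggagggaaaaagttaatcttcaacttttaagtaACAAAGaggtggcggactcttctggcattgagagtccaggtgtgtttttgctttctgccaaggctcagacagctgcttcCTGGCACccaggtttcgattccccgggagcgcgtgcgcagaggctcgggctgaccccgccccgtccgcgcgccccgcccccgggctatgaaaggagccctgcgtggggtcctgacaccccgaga
Mal (chr3:135341424-135341673, minus strand): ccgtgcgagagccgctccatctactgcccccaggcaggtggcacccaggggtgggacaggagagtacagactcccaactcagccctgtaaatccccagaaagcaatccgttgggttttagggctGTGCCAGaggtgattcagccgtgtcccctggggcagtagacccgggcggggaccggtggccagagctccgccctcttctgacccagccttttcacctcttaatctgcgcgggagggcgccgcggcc
Cspg4 (chr8:66160692-66160941, plus strand): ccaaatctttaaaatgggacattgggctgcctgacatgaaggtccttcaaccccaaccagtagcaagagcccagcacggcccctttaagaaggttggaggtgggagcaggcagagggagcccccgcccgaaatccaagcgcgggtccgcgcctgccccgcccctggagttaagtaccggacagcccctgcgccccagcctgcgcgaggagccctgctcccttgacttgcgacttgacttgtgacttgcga
The Myrf core lay 118 to 124 bases before the start of Cnp and 120 to 126 bases before the start of Mal. Promoters were found for 22 of the 32 listed genes, and CTGGCAC occurred in 5 of them (Cnp, Mag, Mal, Olig2 and Opalin), against 3.78% of 33469 promoters of the same length. ACAAAG occurred in 6 of the 22 (Cnp, Enpp6, Mag, Mbp, Mobp and Opalin), against 16.3% of all promoters. Of the other motifs searched, 3 of the 22 held the SOX variant ACAATG (11.1% of all promoters) and 1 held the Myrf variant CTGGTAC (1.78%). The E-boxes bound by Olig proteins were held by 4 (CAGCTG), by 0 (CATATG) and by 2 (CAGATG). A gene was counted if any promoter under its symbol held the letters, while the shares are over single promoters. Both strands were searched, and the window of Cspg4 held none of the 7 motifs. Mbp and Mobp, which varied together closely from rat to rat, held ACAAAG but not CTGGCAC. A match describes these letters only, and binding was not measured. Any link of the letters to the variation between rats was not tested.

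All 20 animals were 4-month-old females and each gave 1 library. WTNT rats (n = 5) were wild type and ate rodent chow. TGNT rats (5 in the genotype comparison, 4 others in the treatment comparison) were TgF344-AD rats on normal chow, a transgenic line that carries human Swedish-mutant amyloid precursor protein and presenilin-1 lacking an exon, both under the prion promoter. TGTR rats (n = 6) were TgF344-AD rats that received diazoxide and dibenzoylmethane (DZ/DIB) in chow from day 52 of life until the brains were taken, so that every rat of the treatment comparison carried the transgenes. The labels do not say which rats shared a litter or cage.

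Libraries held 5848458 to 9926088 estimated reads in the genotype comparison and 9215039 to 14175594 in the treatment comparison. Levels are given as RPM (reads scaled to a common library total), set within each comparison, so they were compared only inside a comparison, and only between rats and not between genes, whose lengths differ. Across the series 2 of 17168 genes passed an adjusted p under 0.05 with a change of at least 1.5-fold in the genotype comparison and 0 in the treatment comparison. Mbp, Mobp, Mag, Mog and Opalin, which define oligodendrocytes, had between 375 and 46048 reads in every rat. TGTR rat 5 stood apart by its choroid plexus transcripts, as described with Enpp2.

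The first comparison addressed what the transgenes did to this lineage at an age before plaques. Most sheath and lipid genes had lower mean levels in the TGNT group than in the WTNT group, and no member passed the test. The size of the log2 fold change exceeded the SD between rats within groups for 5 members (Olig1, Bcas1, Mbp, Mobp and Qdpr) and was below it for the other 26. The estimated change was negative for 25 of the 31 genes and positive for 6, against 47.5% negative among all 11641 genes with a mean of at least 1 RPM. The median log2 fold change was -0.17, beside 0.0067 for those genes. It ranged from -0.43 for Bcas1 to 0.16 for Nkx6-2. No member was called (0.0116% of all genes were), and every adjusted p was 1 in edgeR's quasi-likelihood test. At an unadjusted p under 0.05, 4 members (Bcas1, Qdpr, Mbp and Mobp) were lower and 0 were higher, where 3.23% of all genes passed that level, 1.5% lower and 1.72% higher. That count was 1 without WTNT rat 2, WTNT rat 3, TGNT rat 1 or TGNT rat 3, and 1 with limma-trend or robust estimation, and it was 9 without WTNT rat 5. The groups overlapped in RPM for all 31 members (0.513% of all genes did not overlap). Members are not independent of one another, since most of them followed the same rats, and in bulk tissue fewer oligodendrocytes cannot be told apart from less RNA per cell.

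The second comparison addressed what DZ/DIB did to the same genes in transgenic rats. The estimated change was positive for 30 of the 31 genes and negative for Olig2, and the TGTR group had the higher mean RPM for 29 (not for Mobp and Olig2). The size of the log2 fold change exceeded the SD between rats within groups for 8 members (Enpp6, Tspan2, Ermn, Ugt8, Qdpr, Car2, Tf and Enpp2). Among the 11855 genes with a mean of at least 1 RPM, 50.1% were higher. The median log2 fold change of the members was 0.20, beside 0.00019 for those genes. It ranged from -0.02 for Olig2 to 1.20 for Enpp2. No member was called (0% of all genes were), and the lowest adjusted p was 0.964, for Tf and Ermn. Of all genes, 843 (4.91%) had an unadjusted p under 0.05, and DESeq2 called 3, the likelihood ratio test 5 and the exact test 4, none of them members. At an unadjusted p under 0.05, 6 members (Tf, Ermn, Car2, Qdpr, Tspan2 and Enpp2) were higher and 0 were lower, where 2.98% of all genes were higher and 1.93% lower at that level. That count was 0 without TGNT rat 1, with limma-trend and with the replicate block, 1 without TGNT rat 2, TGTR rat 1 or TGTR rat 6, 2 with robust estimation, and 11 without TGTR rat 2. The groups overlapped for all 31 members (1.15% of all genes did not overlap). The median over members depended on single rats. It was -0.29 without WTNT rat 5 and -0.05 without WTNT rat 3 in the genotype comparison, and 0.10 without TGNT rat 1 and 0.26 without TGTR rat 2 in the treatment comparison.

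**Figure D1:**
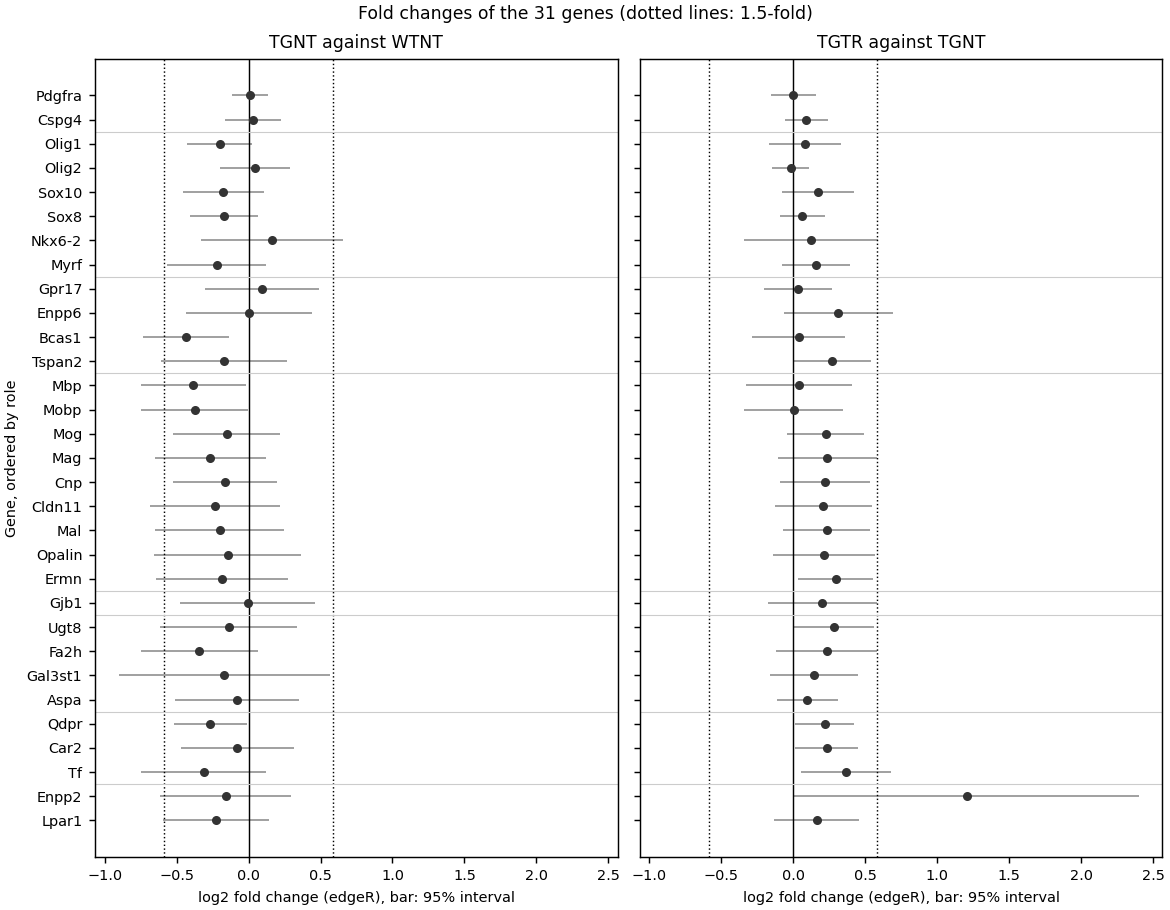
Log2 fold change of each of the 31 genes (points) with its 95% interval (bars) from edgeR, for TGNT against WTNT (left, 5 and 5 rats) and TGTR against TGNT (right, 6 and 4 rats), ordered by role. Dotted lines mark a 1.5-fold change. Most points lie left of 0 on the left and right of 0 on the right, most intervals cross 0, and the interval of Enpp2 on the right is the widest.

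The precursor genes were close to equal between groups and between rats. Pdgfra, the receptor for the growth factor that keeps precursors dividing, stood at 152, 145, 152, 139 and 157 RPM in the 5 WTNT rats and at 148, 141, 161, 145 and 153 RPM in the 5 TGNT rats. The groups covered the same range, with means of 149 ± 6.90 and 149.7 ± 7.82 RPM (SD, n = 5 each) and a log2 fold change of 0.01 (95% interval -0.11 to 0.14). This interval leaves out a 1.5-fold change in either direction. With treatment, Pdgfra measured 134, 124, 122 and 129 RPM in the 4 TGNT rats, and its lowest, median and highest values in the 6 TGTR rats were 116, 123 and 153 RPM, for a log2 fold change of 0.00 (95% interval -0.15 to 0.16). The value of 153 RPM was that of TGTR rat 5, above all others. Cspg4, the proteoglycan NG2 of the precursor surface, measured 34.1, 32.4, 41.5, 33.8 and 40.5 RPM in WTNT rats and 36.7, 43.3, 36.4, 34.3 and 34.9 RPM in TGNT rats. Its groups also overlapped throughout, with a log2 fold change of 0.03 (95% interval -0.17 to 0.23). Cspg4 measured 64.0, 59.6, 56.1 and 55.96 RPM in TGNT rats of the treatment comparison, and 55.6, 62.3 and 69.97 RPM were the lowest, median and highest values in TGTR rats, for a log2 fold change of 0.09 (95% interval -0.06 to 0.24). Of 9 other measured precursor genes, such as Vcan and Pcdh15, 5 were higher and 4 lower in each comparison, with medians of 0.02 and 0.03, and 0 and 1 had an unadjusted p under 0.05.

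The lineage transcription factors showed no call in either comparison, and their spread between rats differed from gene to gene. Sox10, which is present throughout the lineage, measured 34.3, 41.3, 49.4, 38.1 and 32.7 RPM in WTNT rats and 30.1, 44.8, 27.9, 33.5 and 37.5 RPM in TGNT rats. The lowest values belonged to TGNT rats 3 and 1, but TGNT rat 2 was above all WTNT rats except rat 3, and the log2 fold change was -0.18 (95% interval -0.46 to 0.11). Sox10 measured 57.3, 67.0, 67.5 and 60.65 RPM in TGNT rats of the treatment comparison and 56.5, 69.3 and 85.3 RPM (lowest, median and highest) in TGTR rats, a log2 fold change of 0.17 (95% interval -0.08 to 0.42). Olig2, which specifies the lineage, measured 38.9, 41.9, 44.1, 39.8 and 29.6 RPM in WTNT rats and 31.2, 44.9, 41.3, 43.6 and 39.0 RPM in TGNT rats. The order of the groups was mixed, with a log2 fold change of 0.04 (95% interval -0.20 to 0.29). Olig2 was steadier in the treatment comparison, at 41.5, 36.5, 38.9 and 42.3 RPM in TGNT rats and 35.6, 39.3 and 41.5 RPM (lowest, median and highest) in TGTR rats, and was the only member with a negative estimate there. Its counts held fractions of reads in all 10 rats of each comparison, which marks reads that the estimate divided between genes.

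Olig1, the close relative of Olig2 that acts in maturation, had a genotype log2 fold change of -0.20 (unadjusted p = 0.0761, adjusted p = 1 in edgeR's quasi-likelihood test). It measured 81.1, 103.9, 102.7 and 102.4 RPM in TGNT rats of the treatment comparison, so that TGNT rat 1 stood apart below the other 3, and 79.8, 105.5 and 122.5 RPM (lowest, median and highest) in TGTR rats. Myrf, the activator of sheath genes, had log2 fold changes of -0.22 (95% interval -0.57 to 0.12) and 0.16 (95% interval -0.08 to 0.39) in the genotype and treatment comparisons. Sox8, a relative of Sox10, had -0.17 and 0.06, and Nkx6-2, a homeodomain factor of myelinating cells with 15 to 50 reads per rat in the genotype comparison, had 0.16 and 0.12.

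Among the genes of committed and maturing cells, Bcas1 had the lowest p of all members in the genotype comparison. Bcas1 marks oligodendrocytes that are starting to myelinate. It measured 275, 348, 385, 331 and 219 RPM in WTNT rats and 182, 271, 194, 246 and 256 RPM in TGNT rats. All TGNT rats were below WTNT rats 1 to 4, and WTNT rat 5 fell inside the TGNT range. The log2 fold change was -0.43 (95% interval -0.73 to -0.13, unadjusted p = 0.00766, adjusted p = 1 in edgeR's quasi-likelihood test), and an exact two-sided permutation test of the means gave p = 0.0556, where the smallest value the design allows is 0.00794. Bcas1 was level with treatment, with means of 168 ± 29.4 (SD, n = 4) and 172 ± 34.1 RPM (SD, n = 6).

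Gpr17, the receptor that marks the committed stage, measured 9.78, 7.26, 13.7, 9.39 and 9.40 RPM in WTNT rats and 10.6, 6.94, 9.89, 11.1 and 13.8 RPM in TGNT rats, with no order between the groups and a log2 fold change of 0.10 (95% interval -0.30 to 0.49). Gpr17 measured 22.8, 19.8, 19.2 and 21.2 RPM in TGNT rats of the treatment comparison and 16.7, 21.3 and 25.1 RPM (lowest, median and highest) in TGTR rats, for a log2 fold change of 0.03 (95% interval -0.20 to 0.27). Enpp6, an enzyme of newly formed oligodendrocytes, had a log2 fold change of 0.00 between genotypes. Enpp6 measured 5.52, 5.91, 8.57 and 5.80 RPM in TGNT rats of the treatment comparison and 5.79, 7.87 and 9.98 RPM (lowest, median and highest) in TGTR rats. TGNT rat 3 stood apart above the other 3 TGNT rats, and the log2 fold change was 0.31 (95% interval -0.07 to 0.69). Tspan2, a membrane protein of maturing cells, had -0.17 (95% interval -0.61 to 0.27) between genotypes and 0.27 (95% interval 0.01 to 0.54, unadjusted p = 0.0461, adjusted p = 0.99 in edgeR's quasi-likelihood test) with treatment. Of 5 other genes of this stage, such as Tcf7l2 and Itpr2, 4 were lower between genotypes and 3 were lower with treatment, with medians of -0.04 and -0.00092, and 2 of the 5 had an unadjusted p under 0.05 between genotypes.

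All 9 genes of myelin structure had lower means in TGNT than in WTNT rats, with log2 fold changes from -0.38 to -0.14, and all 9 had positive estimates in TGTR against TGNT rats, from 0.0023 to 0.30. Mbp, the protein that binds the inner faces of the myelin membrane together, measured 2646, 3383, 3697, 3014 and 1713 RPM in WTNT rats and 1697, 2577, 1813, 2402 and 2535 RPM in TGNT rats. WTNT rats 1 to 4 were above every TGNT rat, and WTNT rat 5 was the second lowest of all. The log2 fold change was -0.38 (95% interval -0.75 to -0.02, unadjusted p = 0.0402, adjusted p = 1 in edgeR's quasi-likelihood test), and the exact two-sided permutation test gave p = 0.111. Mobp, another basic protein of the compact sheath, repeated this order closely, at 309, 424, 429.9, 366 and 208 RPM in WTNT rats and 196, 305, 226, 290.1 and 317 RPM in TGNT rats. Here TGNT rat 5 also exceeded WTNT rat 1, and the log2 fold change was -0.38 (95% interval -0.74 to -0.01, unadjusted p = 0.0473, adjusted p = 1 in edgeR's quasi-likelihood test).

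The treatment comparison left the same basic proteins level. Mbp measured 1864, 2747, 3076 and 2649 RPM in TGNT rats and 1856, 2793 and 3287 RPM (lowest, median and highest) in TGTR rats, a log2 fold change of 0.04 (95% interval -0.33 to 0.41). Mobp measured 181, 267, 294 and 255 RPM in TGNT rats and 183, 264 and 296 RPM in TGTR rats, a log2 fold change of 0.00 (95% interval -0.34 to 0.35). Ermn, a cytoskeletal protein of mature oligodendrocytes, had the lowest p of the sheath genes with treatment. It measured 66.8, 84.8, 93.6 and 93.8 RPM in TGNT rats and 79.6, 105 and 125 RPM (lowest, median and highest) in TGTR rats. Of the TGTR rats, 5 were above every TGNT rat and TGTR rat 2 was not, with a log2 fold change of 0.30 (95% interval 0.03 to 0.56, unadjusted p = 0.0295, adjusted p = 0.964 in edgeR's quasi-likelihood test) and p = 0.0762 in the exact permutation test. The smallest p this design allows is 0.00952.

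Cnp, a phosphodiesterase that keeps cytoplasmic channels open in the sheath, measured 295, 400.3, 414 and 415 RPM in TGNT rats of the treatment comparison and 339, 455 and 554 RPM (lowest, median and highest) in TGTR rats. Opalin, a glycoprotein of mature cells, measured 73.2, 117, 118 and 112 RPM in TGNT rats and 89.6, 119 and 156 RPM in TGTR rats. In both genes TGNT rat 1 stood apart below its group, and their log2 fold changes were 0.22 (95% interval -0.09 to 0.53) and 0.21 (95% interval -0.14 to 0.57). The remaining sheath genes were Mog and Mag, which lie on the outer and the inner surface of the sheath, Cldn11, which seals its layers, and Mal, which sorts proteins to it. Their log2 fold changes ran from -0.27 (Mag) to -0.15 (Mog) between genotypes and from 0.21 (Cldn11) to 0.24 (Mag) with treatment, and none had an unadjusted p under 0.05. Counts of Mobp and Mog held fractions of reads in all 10 rats of each comparison.

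Gjb1 (connexin 32), the gap junction subunit of myelin, had log2 fold changes of -0.01 and 0.20 in the genotype and treatment comparisons. The 4 enzymes of myelin lipids were Ugt8, which makes galactosylceramide, Fa2h, which hydroxylates its fatty acid, Gal3st1, which makes sulfatide, and Aspa, which frees acetate for lipid synthesis. All were lower between genotypes, from -0.34 (Fa2h) to -0.08 (Aspa), and all were higher with treatment, from 0.10 (Aspa) to 0.28 (Ugt8), and none had an unadjusted p under 0.05. Gal3st1 rested on 9 to 44 reads per rat in the genotype comparison.

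Qdpr, Car2 and Tf are metabolic and transport genes that oligodendrocytes express strongly. Qdpr, which recycles tetrahydrobiopterin, measured 169, 192, 229, 175 and 149 RPM in WTNT rats and 121, 180.05, 133, 167 and 157 RPM in TGNT rats. TGNT rats 1 and 3 were below every WTNT rat and TGNT rat 2 was above 3 of them. Its log2 fold change was -0.27 (95% interval -0.52 to -0.01, unadjusted p = 0.0398, adjusted p = 1 in edgeR's quasi-likelihood test). With treatment, the log2 fold change of Qdpr was 0.22 (95% interval 0.01 to 0.42). Tf, the iron carrier transferrin, measured 411, 568, 639.8 and 608 RPM in TGNT rats and 505, 746 and 839 RPM (lowest, median and highest) in TGTR rats, so that 5 of 6 TGTR rats were above every TGNT rat. The log2 fold change was 0.37 (95% interval 0.06 to 0.68, unadjusted p = 0.0244, adjusted p = 0.964 in edgeR's quasi-likelihood test) and the exact permutation test gave p = 0.0857. Car2, a carbonic anhydrase of the sheath, measured 130.5, 139, 167 and 168 RPM in TGNT rats and 141, 185 and 197 RPM in TGTR rats, a log2 fold change of 0.23 (95% interval 0.01 to 0.45, unadjusted p = 0.0386, adjusted p = 0.976 in edgeR's quasi-likelihood test).

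**Figure D2:**
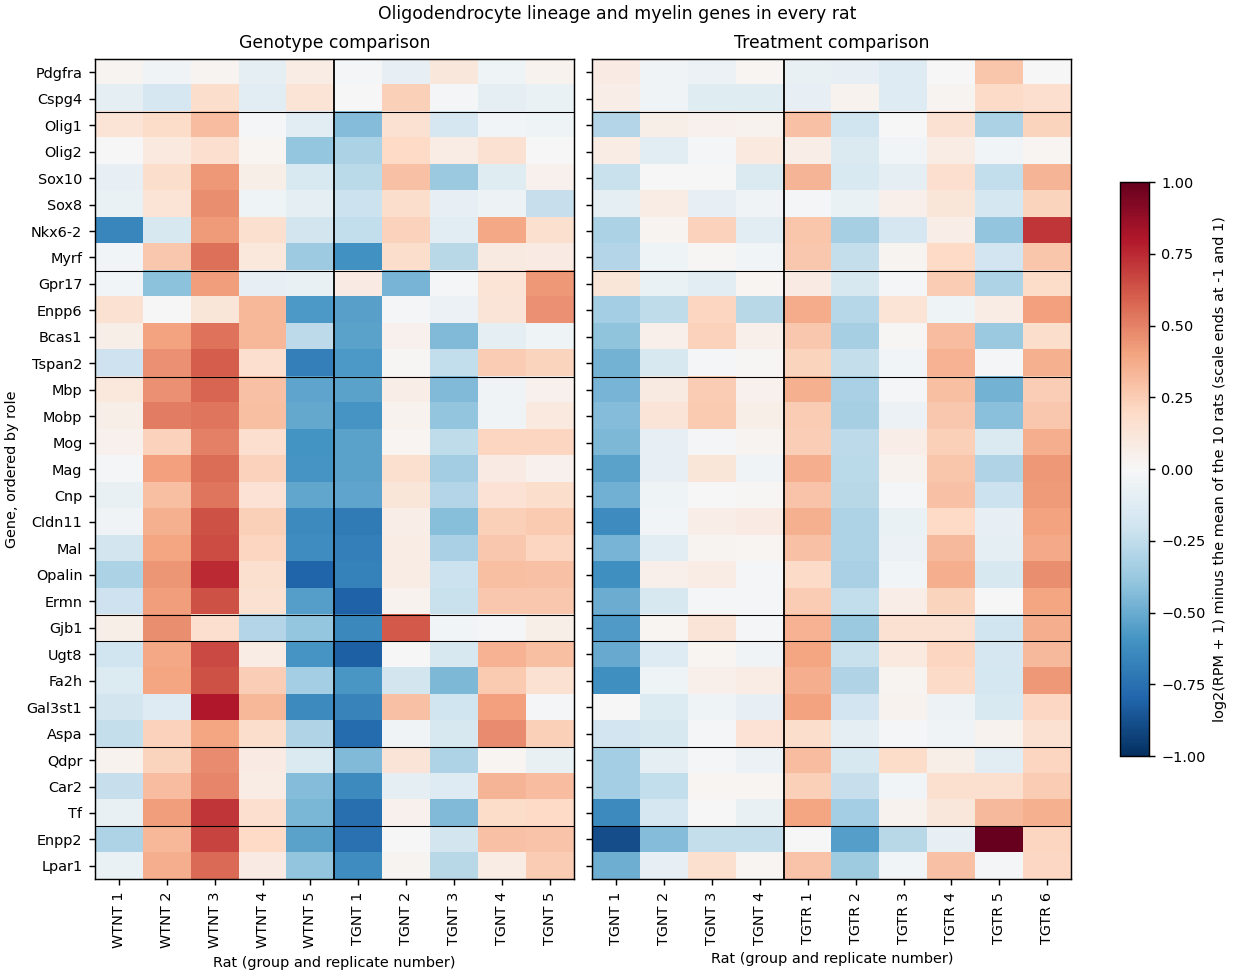
Level of each of the 31 genes in each rat, as log2(RPM + 1) minus the mean of the 10 rats of that comparison (color scale from -1 to 1), with rats in columns and genes in rows by role. A black vertical line divides WTNT from TGNT (left panel) and TGNT from TGTR (right panel). Below the 2 precursor rows most genes share the sign of a rat, with WTNT rat 3 high, the TGNT rat numbered 1 low in each comparison (different animals), and Enpp2 beyond the scale in TGTR rat 5.

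Most rows of sheath, lipid and metabolic genes moved together from rat to rat. WTNT rat 3 was the highest of the 10 rats for 24 of the 31 members and TGNT rat 1 the lowest for 19. In the treatment comparison TGTR rat 6 was the highest for 17 and TGNT rat 1, a different animal, the lowest for 21. On the mean log2(RPM + 1) of the 9 sheath genes, WTNT rats deviated from their group mean by -0.18, 0.28, 0.49, 0.10 and -0.70, and TGNT rats by -0.52, 0.18, -0.22, 0.27 and 0.29. The largest of these deviations exceeded the difference between the group means, which were 8.04 ± 0.46 and 7.83 ± 0.35 (SD, n = 5 each). Among rats of the treatment comparison they ran from -0.40 to 0.19 in TGNT rats and from -0.37 to 0.30 in TGTR rats, around means of 7.73 ± 0.27 (SD, n = 4) and 7.90 ± 0.28 (SD, n = 6).

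The spread between rats of one group was smallest for the precursor genes in the genotype comparison, where all sheath genes lay above every precursor gene and every transcription factor. As SD of log2(RPM + 1) within groups, Pdgfra measured 0.07 and Cspg4 0.15 in the genotype comparison, where the 9770 genes with a mean of at least 5 RPM had a median of 0.15. Olig1, Olig2, Sox8 and Sox10 measured 0.19, 0.21, 0.20 and 0.25, and Myrf and Nkx6-2 measured 0.33 and 0.34. Sheath genes ran from 0.36 (Cnp) to 0.52 (Opalin), with a median of 0.38. In the treatment comparison Pdgfra and Cspg4 measured 0.12 each, against 0.12 for the median gene, and sheath genes ran from 0.23 (Ermn) to 0.33 (Mbp) with a median of 0.30. There the order by role did not hold for every gene. Olig2, at 0.09, was below both precursor genes, Nkx6-2, at 0.36, was above every sheath gene, and Aspa (0.13), Sox8 (0.12) and Gal3st1 (0.18) were below Myrf, Sox10 and Olig1 (0.20 to 0.22).

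After subtraction of group means, the 36 pairs of sheath genes had a median Pearson r of 0.97 (0.92 to 0.99) in the genotype comparison and 0.96 (0.86 to 0.99) in the treatment comparison, each over 10 rats. Sheath genes against the 2 precursor genes had medians of -0.25 and -0.30. The 9 other precursor genes did not repeat this, since their mean had r = 0.64 and 0.15 with the sheath mean. Transcription factors against sheath genes had medians of 0.81 and 0.84, with Myrf closest to the sheath mean (r = 0.97 in both comparisons) and Olig2 at 0.88 and 0.36. Among committed and maturing genes, Bcas1 and Tspan2 followed the sheath mean (0.98 and 0.99, and 0.96 and 0.95), Enpp6 less so (0.79 and 0.68), and Gpr17 least (0.17 and 0.49). Lipid and metabolic genes ran from 0.88 (Gal3st1) to 0.99 (Tf) with the sheath mean in the genotype comparison. In the treatment comparison they ran from 0.53 (Gal3st1) and 0.65 (Aspa) to 0.98 (Fa2h). The first principal component of the members took 86.4% of their variance within groups in the genotype comparison, and 58.5% in the treatment comparison, or 83.8% there without Enpp2. Points of 1 rat share a library and its scaling, so these correlations are descriptions of the same 10 libraries.

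Correlations of 6 pairs were tested by permuting rats within groups, two-sided, with p-values adjusted over 12 tests. Mbp and Mobp had r = 0.992 (permutation p = 0.00015, adjusted p = 0.0018, Spearman's rho = 0.988, permutation p = 0.00019) in the genotype comparison, and r = 0.979 without the 2 rats farthest from the median of Mbp. Among the rats of the treatment comparison they had r = 0.994 (permutation p = 0.00039, adjusted p = 0.00234, rho = 0.879, permutation p = 0.00503), and r = 0.987 without the 2 farthest. Mbp and Sox10 had r = 0.825 (permutation p = 0.00676, adjusted p = 0.0203, rho = 0.891, permutation p = 0.00114) and r = 0.888 (permutation p = 0.00096, adjusted p = 0.00384, rho = 0.891, permutation p = 0.00585), and 0.917 and 0.889 without the 2 farthest rats. By Pearson's r all 4 of these relations passed without those rats (adjusted permutation p of 0.0194 to 0.0424). By Spearman's rho, Mbp and Sox10 still passed in the genotype comparison (adjusted permutation p = 0.0214). Mbp and Mobp did not pass there (0.0536), and in the treatment comparison neither Mbp and Mobp (0.151) nor Mbp and Sox10 (0.149) did.

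Mbp and Pdgfra gave r = -0.533 (permutation p = 0.138, adjusted p = 0.207, rho = -0.345, permutation p = 0.35) and r = -0.559 (permutation p = 0.106, adjusted p = 0.181, rho = -0.333, permutation p = 0.387), which did not pass. Without the 2 farthest rats r was -0.484 in the genotype comparison and 0.372 in the treatment comparison, where TGNT rat 1 and TGTR rat 5 were left out. Mbp and Gpr17 did not pass either, with r = 0.0883 (permutation p = 0.825, adjusted p = 0.825, rho = 0.0788, permutation p = 0.854) and r = 0.525 (permutation p = 0.164, adjusted p = 0.219, rho = 0.503, permutation p = 0.2), and 0.132 and 0.745 without the 2 farthest. Pdgfra and Cspg4 had r = 0.145 (permutation p = 0.693, adjusted p = 0.756, rho = 0.297, permutation p = 0.426) in the genotype comparison, and 0.0715 without the 2 farthest. In the treatment comparison they had r = 0.761 (permutation p = 0.00931, adjusted p = 0.0223, rho = 0.636, permutation p = 0.0745). That relation no longer passed without TGTR rats 3 and 5 (r = 0.631, adjusted permutation p = 0.301). Without TGTR rat 5 alone r was 0.732 (permutation p = 0.0402, adjusted p = 0.0805).

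**Figure D3:**
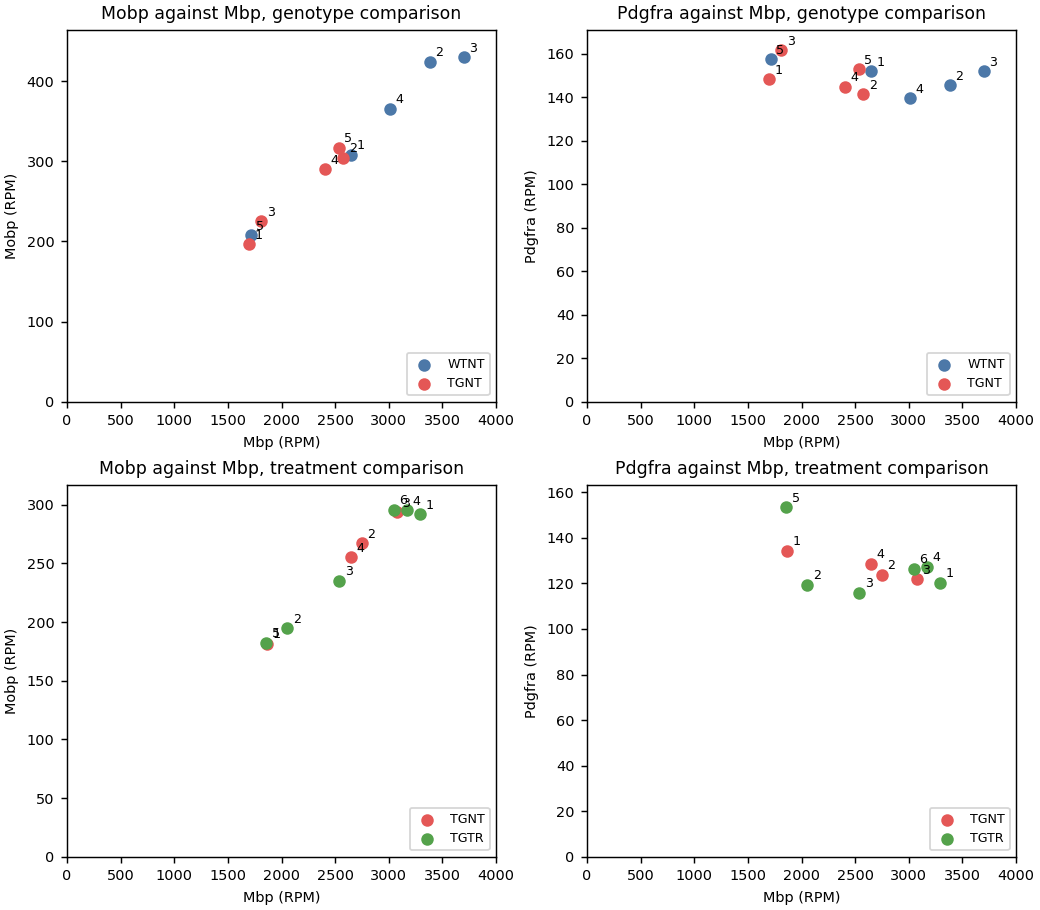
RPM of Mobp (left) and Pdgfra (right) against RPM of Mbp in each rat of the genotype comparison (top, 5 WTNT and 5 TGNT) and the treatment comparison (bottom, 4 TGNT and 6 TGTR), with replicate numbers beside the points and all axes from 0. Mobp follows Mbp along a line in both comparisons, from 196 to 429.9 RPM in the top panel, while Pdgfra stays between 139 and 161 RPM in the top panel across the whole range of Mbp.

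Of the 29 members with a mean of at least 5 RPM in both comparisons, 19 and 17 had r over 0.9 with the mean of the 9 sheath genes (a sheath gene against the mean of the other 8), where 0.917% and 2.46% of 9599 other genes did. Both counts include the 9 sheath genes themselves, which were listed together as sheath genes beforehand, so the counts are not a comparison with the other genes on equal terms. Among those most like the sheath genes in both comparisons were Slc44a1, a choline transporter (r = 0.979 and 0.979), Gpr37, a receptor of oligodendrocytes (0.970 and 0.970), and Tubb4a, a tubulin (0.987 and 0.962). The genes farthest in the other direction were Plxna3, a semaphorin receptor (-0.888 and -0.889), Scml4 (-0.884 and -0.849) and the motor protein Myo5b (-0.856 and -0.839). Of 20 other oligodendrocyte genes measured, 17 were lower between genotypes, with a median of -0.17, and 19 were higher with treatment, with a median of 0.18. Of these, 0 and 2 had an unadjusted p under 0.05, and their mean followed the sheath mean at r = 0.99 and 0.98. The 13 ligands and receptors that act on the lineage, such as Pdgfa, Nrg1 and Erbb3, had medians of -0.05 and 0.08, with 5 and 10 higher.

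Markers of other cell types were compared in the same way. The 6 endothelial markers had medians of -0.02 and 0.18, with 6 of 6 higher with treatment and 2 at an unadjusted p under 0.05, and r = -0.43 and -0.18 with the sheath mean. The 7 pericyte and fibroblast markers had medians of 0.24 (7 higher) and 0.35 (6 higher), and the 11 choroid plexus markers had -0.24 and 3.27, with TGTR rats 5 and 6 included. In the treatment comparison the members' median of 0.20 lay between the endothelial and the pericyte and fibroblast medians, and their part in the members' values was not tested. The 8 neuronal markers (among them Snap25 and Syt1) had medians of -0.01 and -0.05, and their mean had r = -0.82 with the sheath mean in the genotype comparison and 0.43 in the treatment comparison. The 8 astrocyte markers had medians of 0.03 and -0.03 with r = 0.04 and 0.39, and the 8 microglial markers had 0.09 and -0.03 with r = -0.05 and -0.17. Summed over 8 genes, neuronal RPM ran from 5409 to 6063 in WTNT rats and from 5313 to 6082 in TGNT rats, and no marker of the 3 lists was at 0 in any rat. The part of tissue composition in the sheath gene values was not tested.

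Enpp2 (autotaxin), which makes lysophosphatidic acid outside the cell, and Lpar1, a receptor for it, are both expressed by oligodendrocytes, and Enpp2 is also a strong product of the choroid plexus. In the genotype comparison Enpp2 behaved as a sheath gene. It measured 129, 201, 256, 184 and 109.9 RPM in WTNT rats and 94.9, 159.8, 140.4, 196 and 195 RPM in TGNT rats, with r = 0.97 to the sheath mean and a log2 fold change of -0.16 (95% interval -0.62 to 0.30). With treatment, it measured 74.0, 102, 116 and 117 RPM in TGNT rats and 138, 93.7, 113, 130.4, 783 and 159.8 RPM in TGTR rats. TGTR rat 5 was 4.90 times the next highest rat, and without it the TGTR rats overlapped the TGNT rats. The log2 fold change was 1.20 (95% interval 0.01 to 2.40, unadjusted p = 0.0486, adjusted p = 0.99 in edgeR's quasi-likelihood test), and the exact permutation test of the means gave p = 0.105. Without TGTR rat 5 it was 0.31 (unadjusted p = 0.0552, adjusted p = 0.956), and without TGTR rats 5 and 6 it was 0.21 (unadjusted p = 0.166, adjusted p = 1).

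The choroid plexus marker Ttr, a thyroid hormone carrier, was 2501 RPM in TGTR rat 5 and 108 RPM in TGTR rat 6, against at most 11.7 RPM in the other 8 rats. The sum over 11 choroid plexus markers was 3011 RPM in TGTR rat 5, 149 RPM in TGTR rat 6 and 9.24 to 23.8 RPM in the others, and Kl, Clic6 and Kcnj13 were highest in TGTR rat 5 too. The sum over 7 pericyte and fibroblast markers was 400.02 RPM in TGTR rat 5 and 116 to 145 RPM in the others, and Col1a2 was 136 RPM there against at most 24.6 RPM. TGTR rat 5 also held the highest value of Pdgfra, which fibroblasts carry too, and a ratio of Tf to Mobp of 4.38, against 2.13 to 2.87 in the other 9 rats. Enpp2 and Ttr had r = 0.891 within groups (permutation p = 0.012, adjusted p = 0.0241, rho = 0.685, permutation p = 0.0442). Without TGTR rats 2 and 5 r was 0.467 (adjusted permutation p = 0.325), so the relation no longer passed. In the genotype comparison, where Ttr was at most 11.7 RPM, r was 0.369 (permutation p = 0.306, adjusted p = 0.367, rho = 0.321, permutation p = 0.397), and 0.086 without the 2 farthest rats. The median log2 fold change of all 31 members was 0.23 without TGTR rat 5 and 0.17 without TGTR rats 5 and 6. Lpar1 had log2 fold changes of -0.23 (95% interval -0.59 to 0.14) and 0.16 (95% interval -0.13 to 0.46) in the genotype and treatment comparisons.

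**Figure D4:**
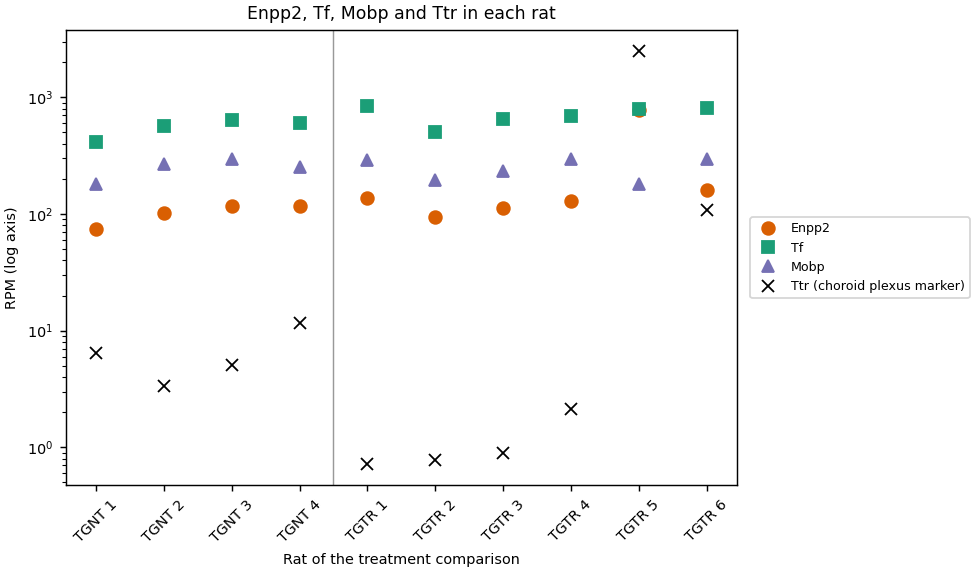
RPM of Enpp2, Tf and Mobp and of the choroid plexus marker Ttr in the 4 TGNT and 6 TGTR rats of the treatment comparison, on a log axis. Enpp2 lies between 74.0 and 159.8 RPM in 9 rats and at 783 RPM in TGTR rat 5, where Ttr reaches 2501 RPM.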

How the data were processed

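Hippocampal mRNA of 20 rats was sequenced from stranded libraries, 1 per rat. Per the labels, the authors used bcl2fastq 2.17, Bowtie2 2.1.0, RSEM 1.2.15 and edgeR with rn6, and deposited for each comparison a table of estimated counts per gene symbol, not normalized, and a signal table of RPM that the authors scaled with TMM within the 10 rats of that comparison. Read filters are not given in the sources used here. The labels and the methods text of the study name opposite sides of the brain for the hippocampus. Every column matched a sample.

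The estimated counts were rounded and fitted with edgeR 4.0.16 (R 4.3.3) in each comparison, over all 17168 genes with no filter, with TMM factors, the quasi-likelihood test and Benjamini-Hochberg adjustment. A gene was called where it changed at least 1.5-fold at an adjusted p under 0.05. Standard errors came from the test statistic. One read was worth 0.101 to 0.171 RPM in the genotype and 0.0705 to 0.109 RPM in the treatment comparison. Single members were also tested by exact permutation of RPM means over all arrangements of the rats, two-sided. Correlations used log2(RPM + 1) minus the group mean, with 100000 permutations within groups. In counts simulated from these libraries, 200 of 17168 genes were changed and scored at an adjusted p under 0.05, without the fold threshold. The fit found 72% of 1.5-fold and 89% of 2-fold changes in the genotype design, and 71% and 84% in the treatment design. Of the genes that passed in this way, 5.85% and 7.74% were false. Calls that also required a 1.5-fold change were not scored. The changed genes were drawn at random and varied independently, so these shares do not describe the members. Their median standard error was 0.184 and 0.136, against 0.109 and 0.0869 for genes with a mean of at least 1 RPM. The study calls the wild-type rats littermates of the transgenic rats, but which individual rats shared a litter is not given. The p-values therefore measure the spread between these rats.

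The members, the marker lists and the tests were chosen with earlier results of these data known. Values in every rat (in the group of 6 mostly the lowest, median and highest) are given for the 3 members with the lowest p in each comparison, for Mbp, Mobp, Pdgfra, Cspg4, Gpr17, Sox10, Olig2 and Enpp2, and for members with 1 rat apart from its group. Non-members were named by their correlation with the sheath mean, or as markers of the lists. One of the most alike genes and 1 marker list are not reported here. Marker lists covered other oligodendrocyte, precursor and committed genes, lineage ligands and receptors, neurons, astrocytes, microglia, endothelium, pericytes and fibroblasts, and choroid plexus. Alternatives were RLE, upper quartile and library size normalization, filterByExpr, DESeq2 1.42.0, edgeR's likelihood ratio and exact tests, robust estimation, limma-trend 3.58.1 on log2(RPM + 1) and log2(RPM + 0.1), no fold threshold, a replicate block, and each rat left out. Promoters were RefSeq windows of GRCr8, matched by symbol.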

Additional observations from a re-analysis of the deposited data

Results flagged for a closer look

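Each member was searched in each group for a single rat far from the rest, relative to the range of the group. Of 124 such searches 7 found one, and about 6.2 would be found by chance at 1 in 20. In the genotype comparison TGNT rat 2 was far above its group for Cspg4, at 43.3 RPM. In the treatment comparison TGNT rat 1 was far below the other 3 TGNT rats for Olig1 (81.1 RPM), Cnp (295 RPM) and Opalin (73.2 RPM), genes whose values follow each other. TGNT rat 3 was far above its group for Enpp6, at 8.57 RPM. TGTR rat 5 was far above its group for Pdgfra (153 RPM) and Enpp2 (783 RPM), and the same rat held 2501 RPM of Ttr.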

How the results depend on the processing

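0 members were called under any of 21 alternatives in the genotype comparison and 22 in the treatment comparison, and the lowest adjusted p of a member over them was 0.72 and 0.554. The median log2 fold change of the members stayed between -0.18 and -0.15, and between 0.17 and 0.24, under the alternatives that kept every rat or used the replicate block. With 1 rat left out it ran from -0.29 to -0.05 in the genotype comparison and from 0.10 to 0.26 in the treatment comparison. The sign of the estimate was the same under all alternatives for 19 and 24 of the 31 members. Replicate numbers showed no clear pairing of the rats. Same-numbered rats correlated at 0.43, -0.15, 0.20, 0.14 and -0.25, and at -0.64, 0.00, -0.10 and 0.18. A shared litter or cage is not given by the labels and was not tested. Of the rats with a shared number, 3 of 10 and 0 of 8 were closest to the rat of their own number. With the number as a replicate block, the medians were -0.15 and 0.17 and 0 members were called, where the treatment fit lacked TGTR rats 5 and 6. In the treatment comparison the correlation of Pdgfra and Cspg4 no longer passed without the 2 rats farthest from the median (r = 0.631) or without TGTR replicate 5 (r = 0.732), and that of Enpp2 and Ttr fell to r = 0.467 and to r = 0.531 in these cases. Leaving out TGTR replicate 5 or replicates 5 and 6 was chosen after seeing the data. Gal3st1, with as few as 9 reads in a rat, had the widest interval between genotypes.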

Other observations

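The ratio of Mbp to Ermn within a library, which no scaling of the library can change, was chosen after its values were seen and was not tested. It was 13.9 to 17.9 in WTNT rats and 11.6 to 17.4 in TGNT rats of the genotype comparison, and 27.9 to 32.9 in TGNT rats and 19.6 to 29.1 in TGTR rats of the treatment comparison. The TGNT groups of the 2 comparisons did not overlap, although both were untreated TgF344-AD females of the same age. TGNT rats had a lower mean ratio than WTNT rats, and TGTR rats than TGNT rats, 13.7 ± 2.40 against 15.4 ± 1.54 (SD, n = 5 each) and 25.5 ± 3.40 (SD, n = 6) against 30.4 ± 2.64 (SD, n = 4), and within each comparison the groups overlapped.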
